A study of Homo sapiens with 24 samples.

Results

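The effect of the DDX3 inhibitor RK-33 on the distribution of RNA between the soluble and the insoluble cytoplasm was examined in U2OS, a human osteosarcoma cell line, in the absence of arsenite. The 12 samples of this comparison, of 24 in the series, were chosen by their labels: 3 soluble and 3 insoluble samples from cells given 0.12% DMSO for 2 h (Ctrl), and 3 of each from cells pre-treated for 1 h with 6 µM RK-33 and given no arsenite (RK-33). The other 12 samples came from cells given 500 µM NaAsO2 for 60 min, alone (NaAsO2) or after 6 µM RK-33 with the same pre-treatment (Combo). RK-33 was given from a stock in DMSO. The methods set the 2 h of DMSO to match how long and when RK-33 was present. They give no separate RK-33 time for cells without arsenite. Both fractions came from one lysate: nuclei were spun out first, and the pellet of a faster spin was the insoluble fraction, which is enriched for RNP granules but is not a pure preparation of them. The study's methods give 3 repeats of the experiment for each condition and do not say how separate the cultures were, so p-values measure the spread between these samples, which may be partly technical. A single cell line and a single inhibitor dose limit the comparison as a model of DDX3 activity.

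DDX3X is a DEAD-box RNA helicase that uses ATP to unwind RNA, helps to start translation of mRNAs with structured leaders, and is found in stress granules. RK-33 binds in its ATP site and blocks that activity. Stress granules (SGs) are assemblies of mRNAs that are not being translated with RNA-binding proteins such as G3BP1, while P-bodies hold mRNAs with the decapping and decay machinery, and an mRNA can move between these assemblies, polysomes, the surface of the endoplasmic reticulum (ER) and the free cytosol.

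The 12 libraries held 11032305 to 17167157 exon plus intron counts, of which 8627294 to 13784393 were exon counts. Correlations between replicates of a group, across genes on a log2 scale, were 0.984 to 0.993. Replicate 3 of the RK-33 soluble fraction stood apart, with introns at 13.3% of its counts against 22.6% and 17.8% in replicates 1 and 2, and 15.9% of its exon counts on RN7SL genes against 8.66% and 9.38%. Outside the comparison, replicate 3 of the NaAsO2 insoluble fraction stood apart, with 5.97% of exon counts on RN7SL genes against 0.445% and 0.823%. Of the 9 mesenchymal and osteosarcoma markers, 7 had a mean of at least 1 CPM (counts scaled to a common library size), and their summed level was 2671 to 4755 CPM. The haematopoietic markers summed to 0.745 to 2.43 CPM and the endothelial markers to 5.52 to 22.2 CPM, while the epithelial markers, carried by KRT8 and KRT18, summed to 246 to 638 CPM. In the 3 RK-33 insoluble samples the mesenchymal (2671 to 2822 CPM) and epithelial (246 to 256 CPM) sums lay below those of the other 9 samples. The part of these sums in the results was not tested. KRT8 and KRT18 were themselves called for the shift between fractions defined below, and no mesenchymal or osteosarcoma marker was.

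For each gene, the shift was the log2 ratio of insoluble over soluble after RK-33 treatment minus the same ratio in Ctrl. A value below 0 therefore means a smaller part in the pellet with RK-33. Of 17666 genes tested, 386 were called at a Benjamini-Hochberg adjusted p under 0.05 (edgeR quasi-likelihood test, all 24 libraries in 1 fit), which was 2.18% of the genes. Most of them, 279 genes or 1.58% of those tested, shifted towards the soluble fraction, by a median of -0.83 on the log2 scale. The other 107 genes, or 0.606%, shifted towards the insoluble fraction, by a median of 0.72. A shift of at least 1 on the log2 scale was seen for 64 of the lower and 13 of the higher genes. The median over all genes was 0.0056, which the TMM scaling sets near 0. The RK-33 and Ctrl lysates did not overlap in their ratios for any of the 386 genes, against 29.6% of all genes tested, which describes the genes that the test selects.

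How many genes were called depended on the libraries and the model. With each lysate as a block, 91 of the 386 were called, of which 89 were lower and 2 were higher. Leaving out single libraries of the comparison gave 113 (without replicate 3 of the RK-33 insoluble fraction) to 368 calls, and 121 without replicate 3 of the RK-33 soluble fraction. In all 12 fits lower calls outnumbered higher ones, and the count stayed within 1.5 times of 386 only without replicate 1 of the RK-33 soluble fraction (368). Without replicate 3 of the NaAsO2 insoluble fraction, which is not part of the comparison but enters the shared fit, 1701 genes were called (1078 lower, 6.1%, and 623 higher, 3.53%) and all 386 remained. With the 12 Ctrl and RK-33 samples alone 2183 genes were called (1415 lower and 768 higher), all 386 among them, and with DESeq2 850 (569 and 281). Scaling by library size alone moved the median of all genes to 0.14, with 224 lower and 225 higher calls, 283 of them among the 386. A minimum mean of 5 CPM in place of 1 gave 374 lower and 273 higher calls, no filter gave 247 and 7, and exon plus intron counts gave 79 and 4.

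**Figure D1:**
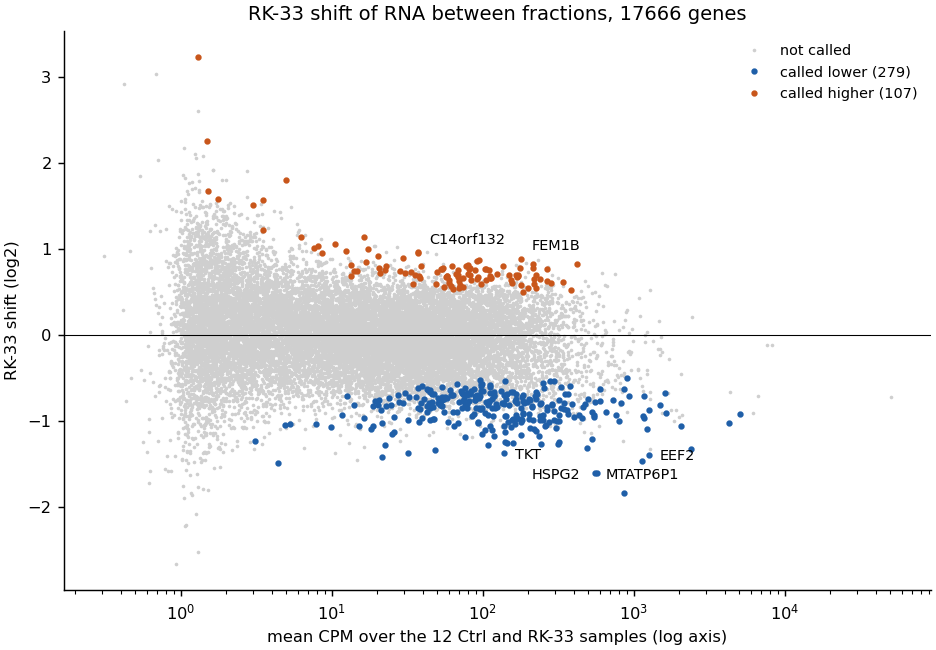
Each point is 1 of 17666 genes, with the mean level in the 12 Ctrl and RK-33 samples (CPM, log axis) against its RK-33 shift (log2). The 279 lower genes (blue) lie at -0.50 or below, mostly at 10 CPM or more, and the 107 higher genes (orange) include the largest values, at low levels.

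Of the 12 lower genes of smallest p, 11 are described here, and several of them encode the protein synthesis and RNA helicase machinery. In Ctrl, EEF2 had 863, 1077 and 989 CPM in the 3 soluble samples and 1402, 1602 and 1750.4 CPM in the insoluble samples, and after RK-33 treatment 1265, 1545 and 1752 CPM and 934, 928 and 956 CPM. EEF2, the elongation factor that moves the ribosome along the mRNA, on chromosome 19 from 3976056 to 3985463 of GRCh38, thus had its higher level in the pellet in Ctrl and in the soluble fraction with RK-33, a shift of -1.39 ± 0.19 (SE, adjusted p = 0.000493). In Ctrl, TARS1 had 171, 192 and 186 CPM in the 3 soluble samples and 288, 318 and 366 CPM in the insoluble samples, and after RK-33 treatment 247, 279 and 289 CPM and 219.9, 181 and 199 CPM. TARS1, the cytosolic threonyl-tRNA synthetase, showed the same crossing, with a shift of -1.27 ± 0.16 (SE, adjusted p = 0.000249). DHX9, a DEAH-box RNA helicase on chromosome 1 from 182839347 to 182887982, differed from these in that it stayed richer in the pellet. In Ctrl, DHX9 had 124, 120.3 and 123 CPM in the 3 soluble samples and 481, 533 and 600.4 CPM in the insoluble samples, and after RK-33 treatment 212, 221 and 215 CPM and 415, 378 and 388 CPM. Its shift was -1.27 ± 0.17 (SE, adjusted p = 0.000375). For DDX1, a DEAD-box helicase, the insoluble level was 199, 223 and 238 CPM in Ctrl and 139, 112 and 118 CPM with RK-33, with no overlap, and the shift was -1.04 ± 0.15 (SE, adjusted p = 0.000493).

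A further group served the secretory pathway and the cell cortex. COPG1, a subunit of the COPI coat that returns proteins from the Golgi to the ER, lies on chromosome 3 from 129249606 to 129277773. In Ctrl, COPG1 had 99.8, 117 and 112 CPM in the 3 soluble samples and 189, 192 and 212 CPM in the insoluble samples, and after RK-33 treatment 138, 162 and 169 CPM and 117, 118 and 118 CPM. Its ratio crossed from enriched to depleted in the pellet, a shift of -1.26 ± 0.15 (SE, adjusted p = 0.000249). DDOST, a subunit of the oligosaccharyltransferase that glycosylates proteins in the ER, had 465, 428 and 462 CPM in the insoluble fraction of Ctrl and 187, 192 and 174 CPM with RK-33. SERPINA1, the secreted protease inhibitor alpha-1 antitrypsin, had 83.6, 75.5 and 85.7 CPM and 26.7, 27.2 and 23.2 CPM there. Both were also lower in the soluble fraction with RK-33 (log2 -0.37 and -0.61, adjusted p = 0.0165 and 0.000988, edgeR), unlike EEF2, while their shifts were -0.92 ± 0.13 and -1.06 ± 0.15 (SE). ACTN4, which crosslinks actin filaments, and EZR, which ties the plasma membrane to actin, shifted by -1.21 ± 0.17 and -0.96 ± 0.13 (SE, adjusted p = 0.000493 and 0.000493).

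TKT, the transketolase of the pentose phosphate pathway, and STIP1, the co-chaperone that links HSP70 to HSP90, completed the 11 genes. In Ctrl, TKT had 126, 155 and 148 CPM in the 3 soluble samples and 141, 150.2 and 149 CPM in the insoluble samples, and after RK-33 treatment 161, 192 and 218 CPM and 77.4, 75.8 and 71.9 CPM. TKT was about equal between fractions in Ctrl and depleted from the pellet with RK-33, by -1.38 ± 0.17 (SE, adjusted p = 0.000288), and STIP1 shifted by -1.08 ± 0.15 (SE, adjusted p = 0.000493). All 11 were called with the lysate block and in each of the 12 fits without 1 library of the comparison. In the insoluble fraction alone, where 13.9% of all genes were called, all 11 were lower with RK-33. In the soluble fraction, where 5.33% of all genes were called, 8 of the 11 passed the test, 6 of them higher. The shift that chose these genes is made of these same contrasts, so the counts are a description.

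The genes that shifted towards the pellet were led by FEM1B, a substrate receptor of CUL2 ubiquitin ligases, on chromosome 15 from 68277745 to 68295862. In Ctrl, FEM1B had 163, 161 and 154 CPM in the 3 soluble samples and 141, 157 and 169 CPM in the insoluble samples, and after RK-33 treatment 159, 141 and 127 CPM and 259.7, 251 and 259 CPM. Its soluble levels overlapped between treatments while its insoluble levels did not, and the shift was 0.88 ± 0.14 (SE, adjusted p = 0.00164, edgeR). SSH1, the slingshot phosphatase that activates cofilin, on chromosome 12 from 108778191 to 108857590, had the same form. In Ctrl, SSH1 had 153, 157 and 150.1 CPM in the 3 soluble samples and 138, 144 and 157 CPM in the insoluble samples, and after RK-33 treatment 149.8, 159 and 150.1 CPM and 239.6, 249 and 262 CPM. The shift was 0.78 ± 0.14 (SE, adjusted p = 0.00407). C14orf132 on chromosome 14 from 96039362 to 96093971 had the largest shift of the 12 higher genes of smallest p, 0.95 ± 0.18 (SE, adjusted p = 0.00512). In Ctrl, C14orf132 had 24.8, 26.8 and 22.7 CPM in the 3 soluble samples and 38.1, 41.5 and 48.6 CPM in the insoluble samples, and after RK-33 treatment 18.2, 21.3 and 16.97 CPM and 62.02, 67.7 and 58.4 CPM. It was richer in the pellet already in Ctrl, and the groups overlapped in neither fraction.

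ZCCHC14, a zinc finger protein, went from 181, 167 and 182 CPM in the insoluble fraction of Ctrl to 270.2, 284 and 253 CPM with RK-33, at soluble levels that overlapped. MAP3K9, a mixed lineage kinase upstream of JNK, went from 128, 136 and 153 CPM to 240.3, 244 and 236 CPM. LUZP1, a leucine zipper protein of actin filaments and centrosomes, went from 153, 177 and 188 CPM to 294, 281 and 268 CPM. The insoluble levels of these 3 genes did not overlap between treatments, and their shifts were 0.69, 0.80 and 0.67. CMTM6 had another form: its soluble level was 117, 119.8 and 103 CPM in Ctrl and 64.3, 69.6 and 70.9 CPM with RK-33, and its insoluble levels overlapped. CMTM6 and CMTM4 are membrane proteins that protect PD-L1 from degradation, and both were lower in the soluble fraction (log2 -0.73 and -0.57, adjusted p = 0.000266 and 0.00527, edgeR). DNAJB6, an HSP40 co-chaperone, was higher in both fractions, by 0.43 and 1.14.

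GNA13, the alpha subunit of G13, IL31RA, a subunit of the interleukin 31 receptor, and CRKL, an adaptor of tyrosine kinase signalling, shifted by 0.70, 0.70 and 0.77. With the lysate block, FEM1B (adjusted p = 0.0264) and C14orf132 (adjusted p = 0.0413) were called, and the other 10 had adjusted p from 0.0538 to 0.0747. CMTM6 was also lost in 1 of the 12 fits without 1 library (adjusted p = 0.0502), and the other 11 were kept in all 12. Exons of COPG1, DHX9, STIP1, DDOST, EEF2, ACTN4, EZR, FEM1B, ZCCHC14, SSH1, CMTM6 and LUZP1 overlap annotated exons of another gene, and the counting used no strand, so that their counts are uncertain in those stretches.

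**Figure D2:**
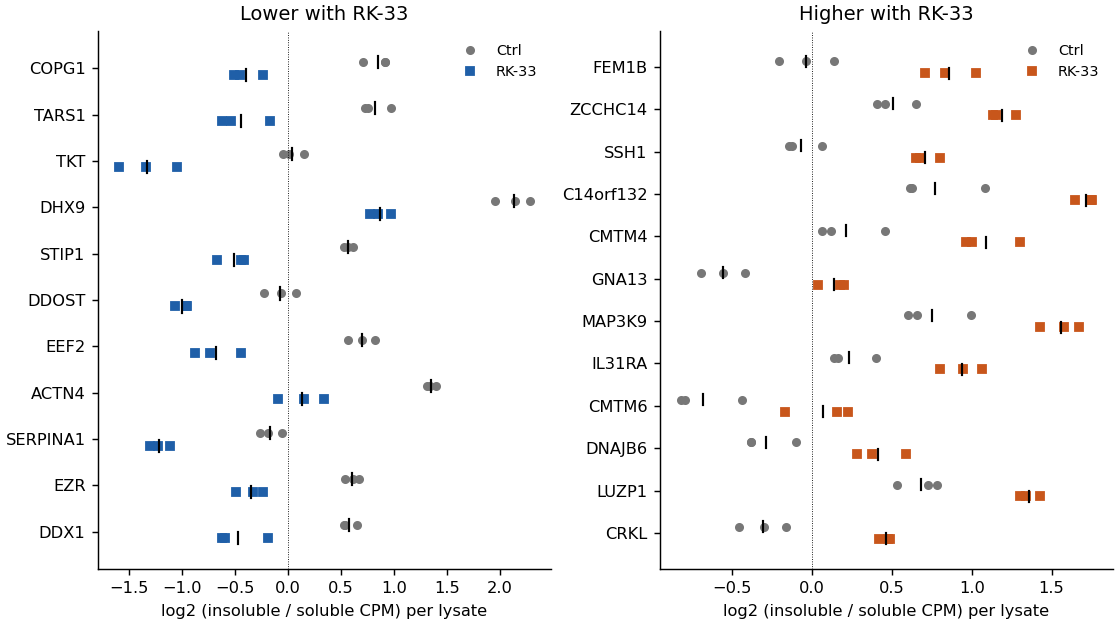
The log2 ratio of insoluble over soluble CPM in each of the 3 Ctrl (grey circles) and 3 RK-33 lysates (coloured squares) for the 11 lower genes described and the 12 higher genes of smallest p, with the group mean as a black bar. No gene has overlapping groups, as the test that chose them implies, and among them EEF2 has the widest gap of means, from 0.70 to -0.68.

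Gene lists were compared by their counts and medians, beside 0.606% of all genes called higher and 1.58% called lower. With the lysate block, 89 of all 17666 genes tested were called lower and 2 higher. None of these shares is matched for level. The median of the mean levels was 118.8 CPM in the lower and 68.4 CPM in the higher genes, against 15.4 CPM over all genes tested. The part of level in the list counts was not tested. The mRNAs of secreted and matrix proteins had 8 of 38 genes called, all lower, with a median shift of -0.62. HSPG2, which encodes the basement membrane proteoglycan perlecan, had the largest of these. In Ctrl, HSPG2 had 243, 222 and 241 CPM in the 3 soluble samples and 1047, 908 and 1136 CPM in the insoluble samples, and after RK-33 treatment 409.8, 431 and 412 CPM and 592, 698 and 505 CPM. It shifted by -1.61 ± 0.23 (SE, adjusted p = 0.000493) and remained richer in the pellet after RK-33 treatment. FN1, fibronectin, shifted by -1.33 ± 0.23 from a high enrichment: its 3 insoluble values were 4128, 4210.4 and 5108 CPM in Ctrl and 2834, 3071 and 2736 CPM with RK-33, without overlap, while its soluble values were 881, 883 and 792 CPM and 1433, 1426 and 1279 CPM. PLOD1, a lysyl hydroxylase of collagen, shifted by -0.98 ± 0.16. In this list 4 genes were called with the lysate block.

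The ER chaperones and folding enzymes had 5 of 20 called, all lower, with a median of -0.63. PDIA3, a disulfide isomerase that works with calreticulin, had 442, 414 and 491 CPM in the pellet of Ctrl and 214, 198 and 167 CPM with RK-33, groups that did not overlap, at a shift of -0.99 ± 0.15 (SE, adjusted p = 0.00111). PDIA4 and HSP90B1, the ER form of HSP90, shifted by -0.95 and -0.83, and FKBP10, a prolyl isomerase for collagen, by -0.92. The early secretory pathway had 6 of 38 called, all lower, at a median of -0.30, with COPG1, DDOST, RPN1 (-0.93), another oligosaccharyltransferase subunit, and COPA (-0.84), another COPI subunit. Receptors, integrins and transporters of the plasma membrane had 7 of 37 called, all lower, at a median of -0.36: BSG (basigin, -0.75), the nucleoside transporter SLC29A1 (-0.70), the glucose transporter SLC2A1 (-0.69) and APP (-0.87) had the smallest p. The calls in these 3 lists were 3, 3 and 1 with the lysate block.

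The list medians below 0 were not limited to mRNAs translated at the ER. The cytoskeleton list had 8 of 36 called and all 36 genes below 0, at a median of -0.65, with ACTN4, VCL (vinculin, -0.81), TUBB4B (a beta tubulin, -0.78) and ACTG1 (gamma actin, -0.68). The glycolytic enzymes had 3 of 18 called at a median of -0.67, namely GAPDH (-0.94), GPI (-0.76) and HK1 (-0.99). In Ctrl, GAPDH had 1435, 1944 and 1628 CPM in the 3 soluble samples and 758, 882 and 744 CPM in the insoluble samples, and after RK-33 treatment 1489, 1726 and 1975 CPM and 456, 389 and 440.3 CPM. GAPDH was thus poorer in the pellet in both treatments, and its insoluble levels did not overlap between them while its soluble levels did. The proteasome subunits had 4 of 31 called at a median of -0.53, among them the base ATPases PSMC4 (-0.74) and PSMC2 (-0.76) and the lid subunit PSMD3 (-0.69). With the lysate block, 2, 1 and 0 genes of these 3 lists were called.

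For the translation machinery, 76 of 79 cytosolic ribosomal protein mRNAs were below 0, at a median of -0.46, but 4 were called, all lower. RPL5, which carries 5S rRNA into the ribosome, had 255, 300.4 and 289 CPM in the pellet of Ctrl and 158, 125 and 157 CPM with RK-33, which did not overlap, and shifted by -0.88 ± 0.16 (SE, adjusted p = 0.00570), and RPL4 shifted by -0.90. Translation factors had 4 of 37 called, all lower, at a median of -0.38, and 2 with the lysate block: EEF2, EIF3D (-0.94) and EIF3G (-0.69), subunits of the initiation factor eIF3, and EEF1A1 (-1.03), which brings tRNAs to the ribosome. RACK1, a ribosomal scaffold protein whose introns carry snoRNAs, was the 1 of 19 snoRNA host transcripts called (-0.93), at a list median of -0.18.

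Nuclear-encoded subunits of the respiratory chain had 3 of 71 called, all lower, at a median of -0.45, and 1 with the block, led by ATP5F1B (-0.88), a catalytic subunit of ATP synthase, and UQCRC1 (-0.99), a core subunit of complex III. The NRF2 targets had 4 of 21 called at a median of -0.41, and 2 with the block. Among the 4 were TKT, PGD (-0.77) and TALDO1 (-0.98), enzymes of the pentose phosphate pathway. Cholesterol synthesis had 2 of 23 called at a median of -0.46, and 1 with the block, with DHCR7 (-0.85), the last enzyme of the pathway. Mitotic spindle and kinetochore mRNAs had 6 of 40 called at a median of -0.30, and 2 with the block, among them KIFC1 (-0.80), a minus-end kinesin, CDC20 (-0.91), an activator of the anaphase promoting complex, CCNB1 (cyclin B1, -0.75) and TPX2 (-0.76). All calls in these 4 lists were lower.

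The heat shock proteins were the 1 list with calls in both directions, 3 lower and 2 higher of 25, at a median of -0.35, and 2 with the block, both lower. STIP1, HSP90AB1 (-1.06), the constitutive cytosolic HSP90, and HSPA8 (-0.97), the constitutive HSP70, were lower, while DNAJB6 and HSPE1, the mitochondrial co-chaperonin, were higher. In the ATF4 and CHOP target list 1 of 22 was called, SHMT2 (-0.82), at a median of -0.17, and among SR proteins and CLK kinases 1 of 22, SRRM2 (-0.50), at a median of -0.08, and none of either list with the block.

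No gene was called among the 35 mRNAs of SG and P-body proteins (median -0.057, 9 at an unadjusted p under 0.05), 42 giant mRNAs (0.13, 5), 18 nuclear-retained and long noncoding RNAs (0.33, 4), 29 immediate early genes (0.026, 3), 24 p53 targets (0.06, 9), 25 histone mRNAs (-0.31, 1) and 3 RNA polymerase III transcripts (-0.72, 1). Without replicate 3 of the NaAsO2 insoluble fraction in the shared fit, 3 SG and P-body mRNAs were called higher (NUFIP2, DCP2 and AGO2) and 4 lower, 3 noncoding RNAs were called higher (TUG1, OIP5-AS1 and CYTOR), 2 giant mRNAs higher and 2 lower, 3 p53 targets higher and 4 lower, and 1 polymerase III transcript lower. In that fit 6.1% of all genes were called lower and 3.53% higher, and 20 of 36 cytoskeletal, 18 of 31 proteasome, 21 of 38 matrix, 20 of 79 ribosomal protein and 12 of 20 ER chaperone mRNAs were called lower. With the lysate block, 35 of the 71 called genes named by the rule kept their call. Among these were PDIA3, PDIA4, HSP90B1, HSPG2, PLOD1, FN1, BSG, RPN1, RPL5, RPL4, EIF3D, RACK1, HSP90AB1, DHCR7, UQCRC1, KIFC1, CDC20, VCL and GAPDH, beside the genes of smallest p. The signs of the list medians were kept under scaling by library size alone, except for SG and P-body proteins (0.061) and for SR proteins and CLK kinases (0.054).

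**Figure D3:**
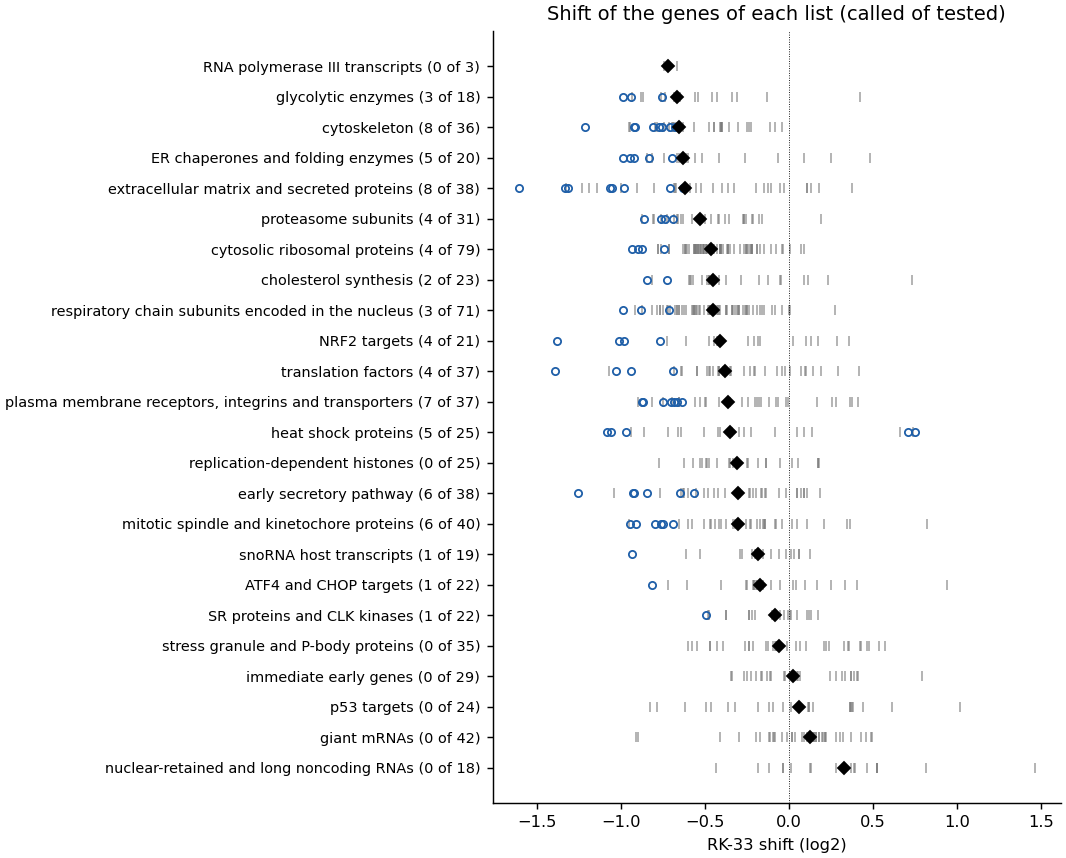
The RK-33 shift (log2) of every tested gene of the 24 lists, with genes that were not called as grey ticks, called genes as blue circles and the list median as a black diamond. The medians run from -0.72 for 3 RNA polymerase III transcripts to 0.33 for nuclear-retained and long noncoding RNAs, and the heat shock list has called genes on both sides of 0.

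The called genes differed in transcript structure, which the test did not use. Their median levels also lay above that of all genes tested. The part of level in the lncRNA and protein-coding shares was not tested. Of the 279 lower genes 276, and of the 107 higher genes 94, had a coding transcript in GENCODE, with 9 lncRNAs among the higher genes (8.41%) and 0 among the lower, against 15.9% lncRNAs and 76.1% protein-coding genes of all genes tested. The median 3′ UTR was 481.5 bases long in the lower genes, 1366 bases over all tested genes and 4622 bases in the higher genes. The quartiles were 224 and 950 bases in the lower and 3168 and 6374 bases in the higher genes, so that the middle parts of the lists did not overlap. Coding sequence made up a median of 75.6% of the transcript in the lower, 48.9% in all and 26.2% in the higher genes, while the median coding lengths were 1755, 1449 and 1652 bases. The 5′ UTR had a median length of 80.5 bases in the lower, 146 bases in all and 228.5 bases in the higher genes. Whole transcripts had median lengths of 2484 bases in the lower, 2900 bases in all and 6661 bases in the higher genes. The part of whole length in the differences of 3′ UTR length was not tested.

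Over all 13441 tested genes with a coding transcript, the shift followed the length of the 3′ UTR in steps. In 5 equal classes of increasing 3′ UTR length, the median shift was -0.30, -0.18, -0.049, 0.075 and 0.19. The shortest class (2689 genes, up to 421 bases) held 123 lower (4.57%) and 3 higher genes (0.112%). The longest (2688 genes, from 3270 bases) held 8 lower (0.298%) and 69 higher genes (2.57%). Over all genes tested, 1.58% were called lower and 0.606% higher. With the trend with GC content removed from each library, the medians were -0.24, -0.14, -0.034, 0.059 and 0.15, and with scaling by library size alone they were -0.16, -0.051, 0.083, 0.21 and 0.32, so that the sign of the middle class depends on the scaling and the order does not. Among genes at the highest of 3 expression levels, the shortest class had a median of -0.49 and the longest 0.20, and at the lowest level -0.071 and 0.19. These are descriptions across genes, which share the libraries and are not independent replicates.

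The same could be read in each lysate. The median log2 ratio of insoluble over soluble of the longest class minus that of the shortest was 0.19, 0.25 and 0.34 in the 3 Ctrl lysates and 0.62, 0.60 and 0.94 in the RK-33 lysates, and these did not overlap. Under arsenite it was 0.87, 0.89 and 0.31 in NaAsO2 and 0.80, 0.84 and 0.57 in Combo, which did overlap. The low NaAsO2 value came from the lysate whose insoluble sample stood apart. Likewise, the RK-33 value of 0.94 came from the lysate whose soluble sample stood apart. The element TGTANATA, which Pumilio proteins bind, occurred in 3′ UTRs at 0.175 per kb in the lower and 0.174 per kb in the higher genes against 0.236 per kb in all, searched on the sense strand, and 11.6%, 51.1% and 30.04% of 3′ UTRs held it. The AU-rich pentamer ATTTA occurred at 1.94, 1.81 and 2.28 per kb. Per length, these motifs were thus no denser in either list than in all genes. The median GC content of the gene's exons was 51.8% in the lower, 47.8% in the higher and 47.6% in all genes, and with the GC trend removed 965 genes were called, 360 of the 386 among them.

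**Figure D4:**
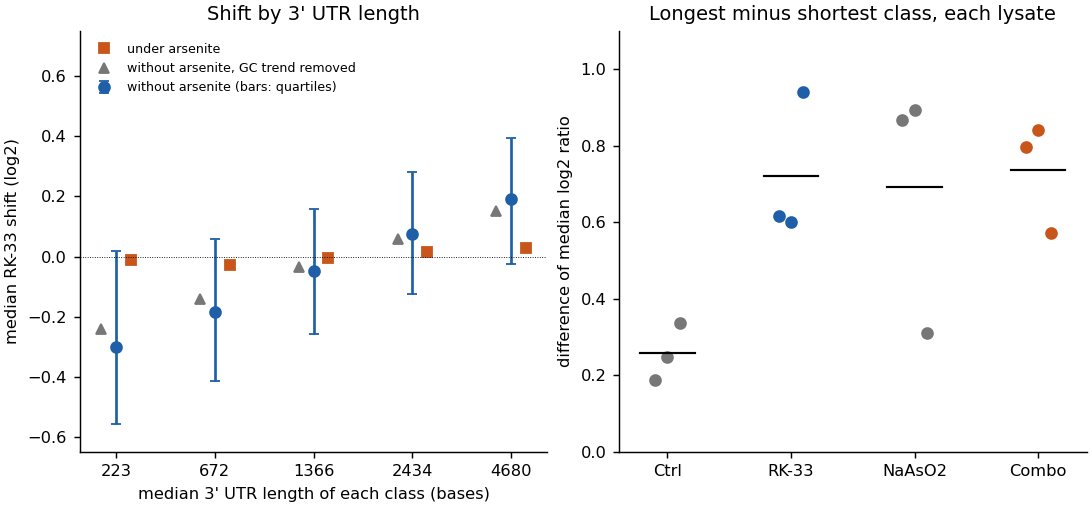
Left, the median RK-33 shift (log2) in 5 classes of 3′ UTR length without arsenite (blue, bars are quartiles over genes), with the GC trend removed (grey triangles) and under arsenite (orange squares). Right, the longest minus the shortest class in the median log2 ratio of insoluble over soluble CPM of each lysate, where the 3 RK-33 lysates (0.60 to 0.94) lie above the 3 Ctrl lysates (0.19 to 0.34).

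The shift can come from either fraction, and for most called genes the insoluble level differed. These contrasts use the same libraries as the shift and are given side by side with it. In the insoluble fraction RK-33 and Ctrl differed for 13.9% of all genes, and for 227 of the 279 lower genes (all lower, median log2 -0.62) and 80 of the 107 higher genes (all higher, median 0.55). In the soluble fraction they differed for 5.33% of all genes. There, 66 of the lower genes were higher and 21 were lower (median 0.23), and 21 of the higher genes were lower and 3 higher (median -0.18). In Ctrl, the lower genes had a median log2 ratio of insoluble over soluble of 0.28 and the higher genes of 0.16, against -0.03 in all genes. With RK-33 the medians were -0.57 and 0.93, against -0.012, so that both lists were slightly rich in the pellet in Ctrl and stood on opposite sides with RK-33. Counts are relative within a library, so a lower level of these RNAs in a fraction and a higher level of other RNAs there cannot be told apart, nor can a change in all cells and a larger change in some.

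The genes that the study is about did not pass the test of the shift without arsenite. DDX3X had 412, 448 and 463 CPM in the soluble and 463, 494 and 532 CPM in the insoluble fraction of Ctrl, and 405, 379 and 323 CPM and 412, 378 and 392 CPM with RK-33. In both fractions the 3 RK-33 values lay below the 3 Ctrl values, but neither difference passed the test (adjusted p = 0.565 and 0.324, edgeR). Its shift was -0.074 ± 0.29 (SE, adjusted p = 0.953), and that of G3BP1 was -0.014 ± 0.15 (SE, adjusted p = 0.982). NORAD, a noncoding RNA that binds Pumilio proteins, had a shift of 0.37 ± 0.15 (SE, adjusted p = 0.220), with 222, 215 and 219 CPM in the pellet of Ctrl and 257, 249 and 272 CPM with RK-33. Under arsenite its shift was -0.68 ± 0.15 (SE, adjusted p = 0.0370), and the difference between the shifts was -1.05 ± 0.21 (SE, adjusted p = 0.00993, edgeR). CCNE1, RAC1 and ODC1, whose mRNAs have been studied as DDX3 targets, had shifts of -0.35 ± 0.20, -0.25 ± 0.14 and -0.025 ± 0.20 (SE, adjusted p = 0.477, 0.444 and 0.975). In the insoluble fraction alone, CCNE1 and RAC1 were lower with RK-33 (log2 -0.53 and -0.33, adjusted p = 0.0153 and 0.0237, edgeR).

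Among the lower genes were 2 nuclear copies of mitochondrial genes, while all 37 genes of the mitochondrial genome itself were at 0 counts in the table. MTATP6P1, a nuclear copy of a stretch of mitochondrial DNA that includes the ATP6 gene, had 1298, 925 and 762 CPM in the soluble and 344, 285 and 309 CPM in the insoluble fraction of Ctrl, and 988, 808 and 661 CPM and 86.9, 86.97 and 79.01 CPM with RK-33. The insoluble groups were far apart and the soluble groups overlapped, and the shift was -1.61 ± 0.26 (SE, adjusted p = 0.00170, edgeR). MTCO1P12, a copy of the gene of a cytochrome oxidase subunit, had 18.4, 13.003 and 15.1 CPM in the pellet of Ctrl and 4.29, 4.09 and 5.45 CPM with RK-33, a shift of -1.42 (adjusted p = 0.0295, and 0.0584 with the lysate block). Of 11 such copies tested, 2 were called, both lower, against 1.58% of all genes called lower. The median shift of the 11 was -0.41, with 6 below 0 and the others above it. Both genes were singled out after their values were seen, and their sequences are so like the mitochondrial genome that the origin of their fragments is uncertain.

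Introns gave no called gene. Of 17406 genes with intron counts, 0 were called and 658, or 3.78%, had an unadjusted p under 0.05, and 0 were called with the lysate block (532 at an unadjusted p under 0.05), with library size alone (637) or without any single library of the comparison. Intron counts were tested for 255 of the lower genes, with a median shift of 0.043 and 6 at an unadjusted p under 0.05, and for 94 of the higher genes, with a median of 0.16 and 3. The median over all was 0.038, so the lower genes, at a median exon shift of -0.83, had no like shift in their introns. The intron share of all counts was higher in the insoluble fraction by 13.95, 15.6 and 8.74 percentage points in the 3 Ctrl lysates and by 12.5, 19.7 and 21.5 points in the RK-33 lysates. The groups overlapped, and the difference of 5.13 points did not pass (exact two-sided permutation test, p = 0.3, where the smallest possible p is 0.1). The value of 21.5 came from the lysate whose soluble library stood apart, and without that lysate the difference was 3.33 points, against 3.12 points without replicate 3 of Ctrl and 7.82 points without replicate 1 of RK-33.

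For circRNAs, the log2 ratio of insoluble over soluble content, as the share of back-splice among back-splice and linear counts, was -1.35, -1.82 and -1.45 in Ctrl and -0.63, -1.30 and -0.97 with RK-33. The groups did not overlap, and the difference of 0.57 had the smallest p that the exact two-sided permutation test can give (p = 0.1). With exon plus intron counts as the denominator the difference was 0.30 and the groups overlapped (p = 0.4, exact). Of 237 single circRNAs tested, 0 were called by edgeR and 19 had an unadjusted p under 0.05.

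The same shift could be computed under arsenite, Combo against NaAsO2, from 12 other libraries. There, 63 genes or 0.357% were called, 39 lower and 24 higher, and 3 of the 386 genes were among them. With the lysate block 7 were called, and leaving out single arsenite libraries gave 16 (without replicate 1 of the Combo insoluble fraction) to 850 calls (without replicate 1 of the NaAsO2 insoluble fraction). HSPE1 was higher in both (0.75 and 0.88), whereas ZCCHC14 and UFD1 took opposite signs (0.69 and -0.63, and -0.53 and 0.85). The 279 lower genes had a median of 0.11 under arsenite, with 193 above 0, and the 107 higher genes had a median of -0.15, with 25 above 0, against a median of 0.0016 and 50.1% of all genes above 0. Over the 12 fits without 1 arsenite library, the median of the lower genes was between -0.026 and 0.15, and that of the higher genes between -0.26 and -0.11.

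The difference between the shifts, tested as a three-way contrast over all 24 libraries, was called for 491 genes, or 2.78% (44 with the lysate block, and 199 to 1876 without single libraries), and for 147 of the 279 lower and 53 of the 107 higher genes. The shift under arsenite was the higher of the pair for all 147 and the lower of the pair for all 53. The contrast contains the shift that chose these genes, so this direction is a description. With the lysate block 27 and 4 of them were called, and without replicate 3 of the NaAsO2 insoluble fraction 232 and 96. EEF2 shifted by 0.21 ± 0.19 (SE) under arsenite against -1.39 ± 0.19 without it, and C14orf132 by -0.76 ± 0.18 against 0.95 ± 0.18. The mean log2 ratios of insoluble over soluble in Ctrl, RK-33, NaAsO2 and Combo were 0.70, -0.68, -0.93 and -0.73 for EEF2. For C14orf132 they were 0.77, 1.72, 2.59 and 1.84. Both genes thus differed from Ctrl in the same direction with NaAsO2 alone as with RK-33 alone. So did all the other lower genes described and, except for DNAJB6, all the other higher genes of the 12. In the same order, COPG1 had means of 0.85, -0.40, -0.90 and -0.64, and FEM1B had -0.036, 0.86, 1.23 and 1.18. The means of DNAJB6 were -0.29, 0.41, -0.45 and 0.016. The part of the NaAsO2 ratios in the shift under arsenite was not tested. All 11 lower genes described and 9 of the 12 higher ones passed the test of the difference, and GNA13, CMTM6 and DNAJB6 did not (adjusted p = 0.229, 0.0850 and 0.641, edgeR).

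The medians of 3 of the 24 lists had the same sign under arsenite as without it, namely RNA polymerase III transcripts (-1.19 against -0.72), long noncoding RNAs (0.054 against 0.33) and the matrix mRNAs. Of the 3 polymerase III transcripts tested, 1 remains when RN7SL genes are left out. Replicate 3 of the NaAsO2 insoluble fraction held 5.97% of exon counts on RN7SL genes, against 0.445% and 0.823% in replicates 1 and 2. That library enters every list median under arsenite, and these medians are not given without it. The ribosomal protein mRNAs had a median of 0.49 under arsenite with 3 of 79 called, against -0.46 without it, respiratory chain subunits 0.35 against -0.45, and histone mRNAs 0.56 against -0.31. The cytoskeleton, at 0.073 against -0.65, the glycolytic enzymes, at 0.083 against -0.67, and the matrix mRNAs, at -0.062 against -0.62, were near 0 under arsenite, and the immediate early genes stood at -0.81 against 0.026. The classes of 3′ UTR length had medians of -0.011, -0.03, -0.005, 0.014 and 0.027. The difference of these medians was not tested.

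**Figure D5:**
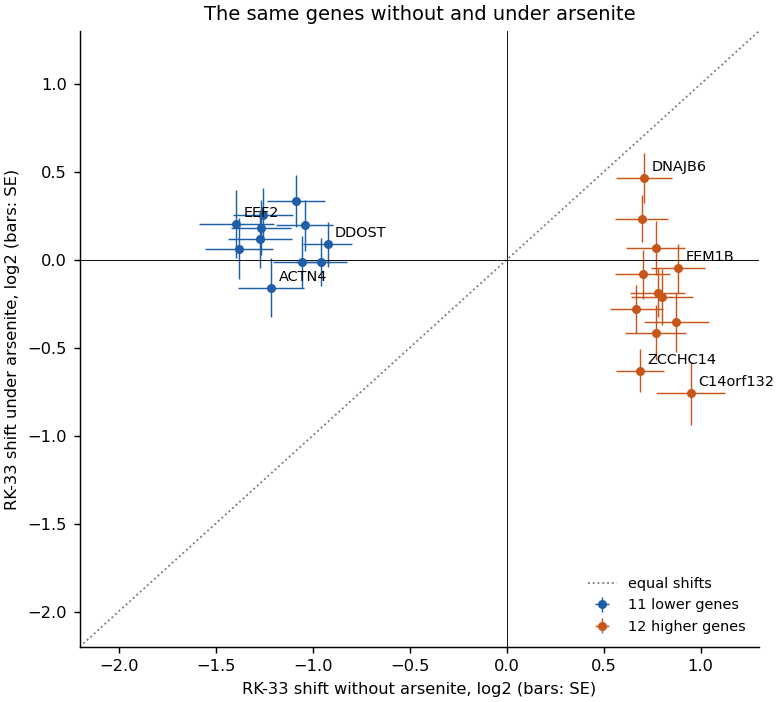
The RK-33 shift (log2, bars are SE) without arsenite against that under arsenite for the 11 lower genes described (blue) and the 12 higher genes of smallest p (orange), with the line of equal shifts dotted. The lower genes lie between -0.16 and 0.34 under arsenite and the higher ones between -0.76 and 0.47, most of them away from the line.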

How the data were processed

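The authors lysed the cells, removed nuclei, split the cytoplasm into fractions, made directional rRNA-depleted libraries and aligned the paired reads to GRCh38.p13 (STAR 2.7.2b, SAMtools 1.2, per the submitters' processing notes). They deposited raw counts of fragments on exons and, separately, introns of GENCODE release 40 genes, counted without strand, and counts of back-splice and linear junction reads. No column belonged to another sample. Gene structures and GC content were taken from GENCODE release 44 on the same assembly (MANE Select, otherwise the Ensembl canonical transcript).

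Exon counts were tested with edgeR 4.0.16 (R 4.3.3), quasi-likelihood, TMM factors, a minimum mean level of 1 CPM, all 24 libraries in 8 groups, and called at an adjusted p under 0.05 with no fold limit, and the same held for introns. CPM are TMM-scaled except for marker sums, and lysate ratios used 0.5 CPM as pseudocount. The fractions of one lysate are paired by the study's protocol: their deviations from the group means correlated at -0.32 to 0.34 over 12 lysates, across 10260 genes. The lysate block was therefore an alternative, as were other scalings, filters, tests (glmLRT, DESeq2 1.42.0) and each library left out. The fits were tested on simulated data, drawn without pairing of fractions, with 50 genes at each known shift. At log2 shifts of -0.75 and 0.75, the main fit called 6 and 15 of 50 in the right direction. The fit with the lysate block called 1 and 9. At -1.5 and 1.5 the main fit called 43 and 37, and the block 45 and 39. A gene that was not called can therefore have a shift near 0.75 in size. Named were the 12 genes of smallest p in each direction with at least 10 CPM, up to 4 called genes of each list, and 6 genes of the study question, and not all of them are described. Results for some genes are not reported here. Members, lists and tests were chosen with earlier results of these data known. The test of the difference between the shifts with its alternatives, the single libraries left out of the intron and arsenite tests, the NaAsO2 library left out of the shared fit, and the transcript features were chosen after seeing the data. Python 3.11.15 made the figures.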

Additional observations from a re-analysis of the deposited data

Results flagged for a closer look

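The RK-33 shift differed with and without arsenite, by the three-way contrast (edgeR, adjusted p under 0.05), for 491 genes. Among the 11 lower genes described, the shift under arsenite minus that without was 1.51 for COPG1, 1.45 for TARS1, 1.44 for TKT, 1.39 for DHX9, 1.42 for STIP1, 1.01 for DDOST, 1.60 for EEF2, 1.05 for ACTN4, 1.04 for SERPINA1, 0.95 for EZR and 1.24 for DDX1, on the log2 scale. Among the higher genes it was -0.93 for FEM1B, -1.32 for ZCCHC14, -0.96 for SSH1, -1.71 for C14orf132, -1.23 for CMTM4, -1.01 for MAP3K9, -0.78 for IL31RA, -0.95 for LUZP1 and -1.18 for CRKL. The genes were chosen by the shift without arsenite, which enters the contrast.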

How the results depend on the processing

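Of 386 genes called for the RK-33 shift, the count became 2183 with Ctrl and RK-33 samples alone, 850 with DESeq2, 965 with the GC trend removed, 614 with the GC trend removed and the lysate replicate block, 647 with a mean of at least 5 CPM, 254 with no low-count filter, 83 with exon plus intron counts, 77 with an absolute log2 value of at least 1, and 91 with the lysate replicate block, which pairs the fractions of one lysate. The block over replicate numbers gave 386, glmLRT 542, RLE factors 340, library size alone 449 and the counts without RN7SL genes 311. Without single libraries it ranged from 113 to 1701, the latter without replicate 3 of the NaAsO2 insoluble fraction, chosen after seeing the data. Under arsenite, 63 calls became 138 with library size alone and 7 with the lysate block, and 16 to 850 without single libraries. For the difference between the shifts, 491 calls became 44 with the lysate block, 615 (162 up and 453 down, against 298 and 193) with library size alone, and 199 to 1876 without single libraries. No intron shift was called in any fit. Without single lysates the intron share difference ranged from 3.12 to 7.82 points and that of circRNA content from 0.40 to 0.74. The causes were not tested.

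Values of the 77 named genes kept direction and call in 1647 cases of 2002, lost the call in 340 and took the opposite sign in 15, all for genes of the study question that were not called. DDX3X took 0.051 with library size alone and 0.0031 without replicate 1 of the RK-33 soluble fraction. G3BP1 took 0.022 without RN7SL genes, 0.12 with library size alone, 0.0402 at 5 CPM, and 0.049, 0.0024 and 0.035 without replicate 3 of the Ctrl insoluble, 1 of the Ctrl soluble and 2 of the RK-33 insoluble fraction. ODC1 took 0.011 without RN7SL genes, 0.12 with library size alone, 0.028 at 5 CPM, and 0.057, 0.058, 0.083 and 0.12 without those same 3 libraries and without replicate 3 of the RK-33 soluble fraction. Without single libraries the shift ranged from -0.16 to 0.0031 for DDX3X, -0.076 to 0.049 for G3BP1 and -0.12 to 0.12 for ODC1. Of the 254 calls with no low-count filter, 139 were among the 386.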
